A study of Gallus gallus with 8 samples.

Results

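The regions described here are 1288 open chromatin sites of the chick retinal pigment epithelium (RPE) whose ATAC-seq signal was lower at embryonic day 5 (E5) than at E4, both in the developing eye and 6 hours after retinectomy with FGF2 (6hPR+FGF2). They were 1.43% of the 89824 open regions measured, and were chosen by their measured stage differences. A region had to lie on chromosomes 1 to 28, be at most 5000 bp wide, and have an E5 mean at least 1 log2 unit below its E4 mean in each condition, after 1 was added to both means. Both E4 libraries had to lie above both E5 libraries in each condition, and at least 1 of the E4 groups had to average 100 normalized counts or more. The rule could consider 83389 regions, of which 61373 reached the E4 level and are called E4-level regions below. The stage differences of the 1288 regions are therefore given as a description, without a test. The label under which they were collected calls them lost by E5, but most of them kept part of their signal, so they are called E4-high regions here.

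ATAC-seq maps open chromatin by letting the transposase Tn5 insert sequencing adapters, so that the read count of a region is a measure of its accessibility. The RPE is the pigmented layer behind the neural retina. In the early chick embryo, RPE can be reprogrammed to form a new neural retina when the retina is removed and FGF2 is supplied, and this competence is lost within about a day as the layer matures. Open regions away from gene starts are often enhancers, which bind transcription factors and differ between cell states more than promoters do. Regions that are less open in the older RPE, with or without the stimulus, are one way in which the older layer differs from the competent one.

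The 4 groups were E5 RPE 6hPR+FGF2, E4 RPE 6hPR+FGF2, developing E5 RPE and developing E4 RPE, with 2 libraries each and the RPE of 2 embryos pooled in every library. Eggs were White Leghorn per the labels, whereas the paper names pathogen-free SPAFAS eggs for its sequencing and White Leghorn eggs for its other experiments. E4 was Hamburger Hamilton stage 24 and E5 was stage 26, and treated eyes received heparin beads with FGF2 when the retina was removed. No ATAC-seq library from eyes after retinectomy alone was analysed here, so surgery and FGF2 cannot be told apart. In a bulk tissue, fewer cells of a type and less accessibility per cell cannot be told apart either. Reads within open regions ran between 25233633 and 72884966 per library. The lowest depths belonged to the E5 6hPR+FGF2 group, with 25233633 and 33925829 reads, and the value of 1 read in it was 1.84 and 1.52 normalized counts. RPE marker genes could not be checked, because no annotation of the files' genome build, GRCg6a, was used here outside chromosome 1.

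The E4-high regions were reduced, but seldom gone, in the E5 libraries. Their median signal was 73.5 and 56.2 normalized counts in the E5 6hPR+FGF2 libraries, against 234 and 142 in the E4 6hPR+FGF2 libraries. In developing RPE it was 80.3 and 70.8 normalized counts at E5, against 238 and 168 at E4. Each of the 4 E5 medians was thus below each of the 4 E4 medians, a direction that the rule sets within each condition. The median over all E4-level regions lay between 251.9 and 268.9 normalized counts in every library, so per region the E4-high regions were somewhat lower than other such regions at E4 too. The E4-high regions were also narrower. Per kilobase their median was 362 normalized counts in E4 6hPR+FGF2 RPE, against 404 in E4-level regions, but 386 in developing E4 RPE, against 371. Together the E4-high regions held 0.305% and 0.214% of the signal of the E5 6hPR+FGF2 libraries, against 0.941% and 0.586% of that of the E4 6hPR+FGF2 libraries. The shares in developing RPE were 0.316% and 0.285% at E5, against 0.952% and 0.698% at E4.

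**Figure D1:**
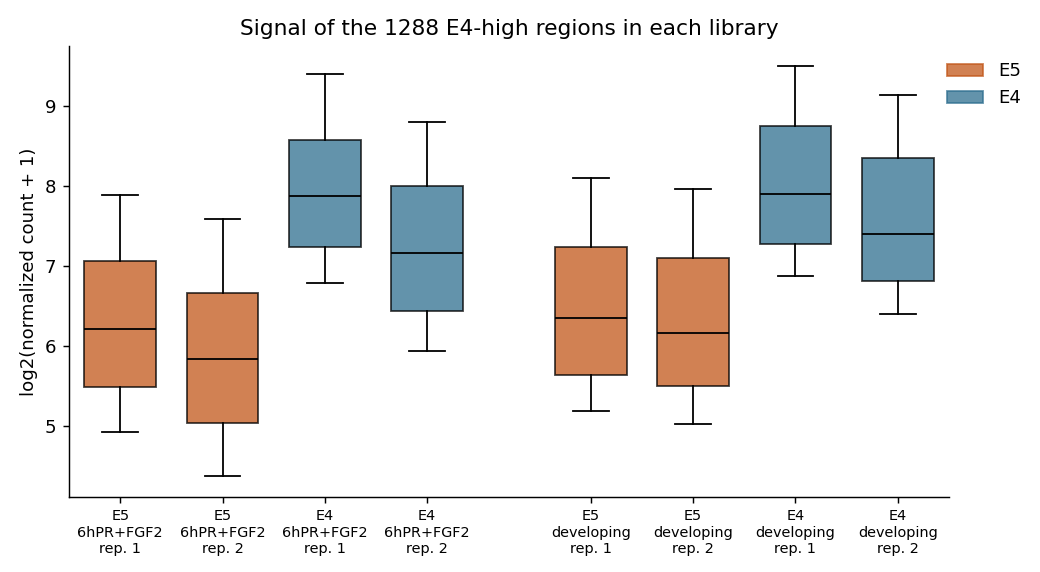
Signal of the 1288 E4-high regions in each of the 8 libraries, as log2(normalized count + 1). Boxes span the middle 50% of the regions with the median as a line, whiskers the 10th to 90th percentile, E5 in orange and E4 in blue. The E5 medians lie between 56.2 and 80.3 normalized counts and the E4 medians between 142 and 238, and replicate 1 is the higher of the 2 libraries in every group.

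Most regions kept a sizeable part of their E4 signal at E5. In 6hPR+FGF2 RPE the E5 mean was a median of 36.5% of the E4 mean, with a 10th to 90th percentile of 22.0% to 46.8%. In developing RPE the median was 38.7%, with a 10th to 90th percentile of 25.5% to 47.4%. Only 202 regions after 6hPR+FGF2 and 126 in developing RPE had less than 25% of their E4 mean left, and 4 and 2 had less than 10%. Of the 4, 2 had no read at E5 and at most 6 reads in an E4 6hPR+FGF2 library. Seen per kilobase of region, the E5 signal was low among open regions. After 6hPR+FGF2 at E5, 46.0% of E4-high regions were at or under the 5th percentile of all E4-level regions, which was 116 normalized counts per kb, and 90.5% were in the lowest 25%. In developing E5 RPE these shares were 43.7%, at a 5th percentile of 135 normalized counts per kb, and 88.8%. The rule chose regions with low E5 signal, and these shares are a description of them.

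The sizes of the 2 stage differences, both of which the rule cut at -1, are given as a description. The median log2 difference of E5 over E4 was -1.44 after 6hPR+FGF2 (interquartile range -1.76 to -1.21) and -1.36 in developing RPE (-1.64 to -1.16). The 2 differences of a region were within 0.5 log2 of each other in 971 of the 1288 regions (75.4%), and the treated one was the more negative in 752 (58.4%). Across the regions they correlated with a Pearson r of 0.393. This is a correlation over regions of the same 8 libraries, whose range the rule restricts, and regions are not independent replicates. A fall over 4-fold was seen in 189 regions after 6hPR+FGF2, in 118 in developing RPE and in 46 in both. The E4 level reached 100 normalized counts in both conditions in 1029 regions, in 6hPR+FGF2 RPE alone in 83 and in developing RPE alone in 176.

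The overlap of the conditions can be read from the lists behind the rule. Of the E4-level regions, 2871 (4.68%) met the criteria for a fall in 6hPR+FGF2 RPE and 2629 (4.28%) in developing RPE, in comparisons that share no library. The 1288 regions in both lists were 44.9% of the treated list and 49.0% of the developing list. In the reverse direction, 706 regions were higher at E5 in both conditions by the same criteria. When limma was fitted over all 89824 regions, 586 of the E4-high regions (45.5%) were called lower at E5 after 6hPR+FGF2 at an adjusted p of at most 0.05, against a background of 2.06% of all regions, and 480 (37.3%) in developing RPE, against 1.35%. The rule used these contrasts, so nothing is read from the counts except that, with 2 libraries a group, most of the regions were not called in a given condition. In the opposite direction 2.54% and 2.8% of all regions were called higher at E5 after 6hPR+FGF2 and in developing RPE, and none of the E4-high regions could be.

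The regions with the deepest falls lay on chromosomes 1 to 4. For naming, regions were ordered by the weaker of their 2 stage differences, among those averaging 100 normalized counts or more in both E4 groups. The deepest was a 610-bp region at chr1:98838950-98839560 (GRCg6a). It had 31.2 and 4.56 normalized counts in E5 and 281 and 65.6 in E4 RPE after 6hPR+FGF2, and 26.9 and 25 at E5 against 182 and 228 at E4 in developing RPE. The E5 mean was 10.3% of the E4 mean after treatment and 12.6% without it, and the 2 treated libraries of each stage were far apart.

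The largest fall in developing RPE belonged to chr4:77806340-77806930, with 29 and 29.998 normalized counts at E5 against 719.8 and 332 at E4. After 6hPR+FGF2 it had 45.9 and 24.3 normalized counts at E5 against 365 and 128 at E4. Its E5 mean was 5.61% of the E4 mean in developing RPE, the lowest share among the E4-high regions in that condition, and 14.2% after treatment. The 390-bp region at chr1:90211820-90212210 fell by nearly the same factor in both conditions. It held 33.1 and 16.7 normalized counts at E5 and 234 and 111 at E4 after 6hPR+FGF2, and 24.0 and 16.7 at E5 against 197 and 93.0 at E4 in developing RPE. The remaining shares were 14.4% and 14.1%.

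On chromosome 3, chr3:83558780-83559210 had 18.4 and 9.12 normalized counts at E5 against 189.8 and 61.8 at E4 after 6hPR+FGF2. In developing RPE it had 21.2 and 30.8 at E5 against 221 and 135 at E4. Its companion at chr3:13286210-13287070 was wider, at 860 bp, and left 11.5% of its E4 mean after treatment and 16.8% in developing RPE. That region had 36.7 and 24.3 normalized counts at E5 against 406 and 125 at E4 in the treated libraries, and 65.8 and 46.7 against 362 and 309 in the developing ones.

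The study's annotation placed 1 of the 8, chr1:25584310-25585000, in an intron of a gene without a symbol. It had 64.3 and 36.5 normalized counts at E5 against 544 and 276 at E4 after 6hPR+FGF2, and 50.9 and 55.0 at E5 against 419 and 209 at E4 in developing RPE. A pair of sites on chromosome 2 completed the group. At chr2:86777110-86777630 the E5 mean was 18.3% of the E4 mean after 6hPR+FGF2 and 9.87% in developing RPE. At chr2:85900770-85901330 it was 18.3% and 14.3%. None of these 8 regions differed between 6hPR+FGF2 and developing RPE at either stage, with limma adjusted p-values between 0.139 and 0.839, although standard errors of 0.42 to 0.79 log2 leave room for sizeable differences.

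**Figure D2:**
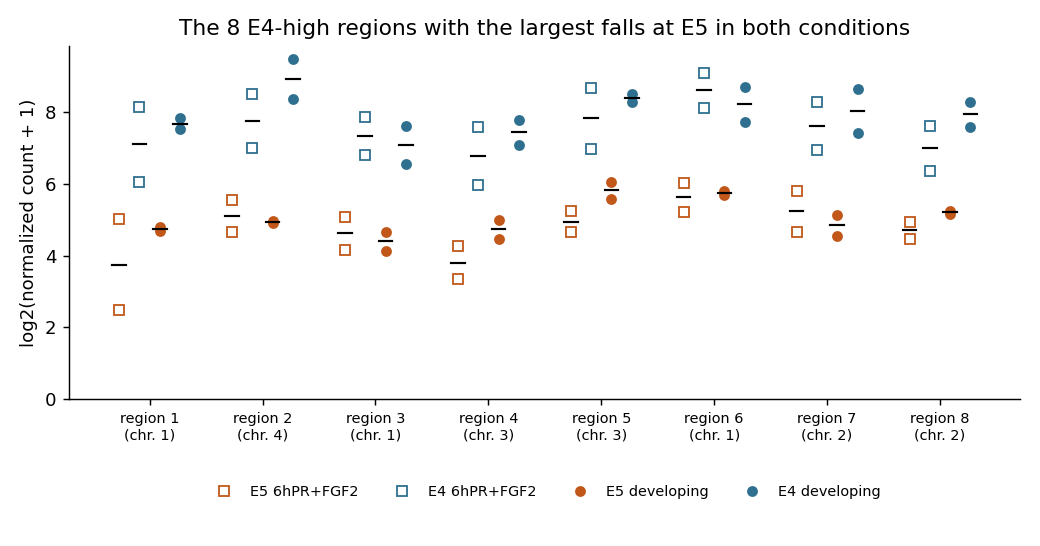
Signal in every library of the 8 regions with the deepest falls, numbered in the order in which the text names them, as log2(normalized count + 1). Each symbol is 1 library, open squares 6hPR+FGF2 and filled circles developing RPE, E5 in orange and E4 in blue, with a bar at the mean of the 2 log2 values. In each region all 4 E4 libraries lie above all 4 E5 libraries.

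The 3 E4-high regions with the most signal at E4 kept more of it than the median E4-high region. Whether signal and the share left go together over all E4-high regions was not tested. The highest mean over the 4 E4 libraries belonged to a 1470-bp region at chr5:22142310-22143780, with 847 and 697 normalized counts at E5 against 2257 and 1321 at E4 after 6hPR+FGF2. In developing RPE it had 963 and 917 at E5 against 2792 and 1549 at E4. Close to it were chr6:24884140-24886370 and chr2:67478590-67480310, whose E5 means were 46.9% and 44.9% of the E4 means after treatment and 47.8% and 43.5% in developing RPE. The lowest E5 library of the 3 regions was E5 6hPR+FGF2 replicate 2 at the chromosome 2 site, with 618 normalized counts, so these regions were open at both stages.

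At the threshold, regions just inside and just outside differed little. The nearest inside, chr2:31989510-31990450, had 90.01 and 42.5 normalized counts at E5 against 151 and 116 at E4 after 6hPR+FGF2, and 84.2 and 40.8 against 273 and 135 in developing RPE. The other two were chr1:79419290-79419970, with 49.7% of the E4 mean left after treatment, and chr18:5670420-5670690, with 49.3% left in developing RPE. Just outside lay chr20:13767770-13768640, with 360.1 and 304 normalized counts at E5 against 829 and 501 at E4 after 6hPR+FGF2, where 49.9% was left. It was followed by chr1:69288210-69288630 with 49.7% left in developing RPE and chr7:35043430-35043940 with 49.7% left after treatment.

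Within each group the first library carried more of this signal than the second, and most so at E4. The rule set no criterion on the difference between replicates, but it used the values of both libraries of every group. A high E4 library raises the E4 mean and so helps a region to pass. The differences between replicates are therefore given as a description. After 6hPR+FGF2, replicate 1 was the higher in 78.5% of the E4-high regions at E5, with a median log2 difference of 0.39, and in 86.6% at E4, with 0.77. In developing RPE it was the higher in 66.5% at E5, with a median of 0.15, and in 84.8% at E4, with 0.52. Over all regions the rule could consider, these shares lay between 43.0% and 54.8%. The tilt was also present in the regions that met the criteria in 1 condition alone. In the 1583 of 6hPR+FGF2 RPE only, the shares were 67.0% (E5 6hPR+FGF2), 75.4% (E4 6hPR+FGF2), 68.2% (developing E5) and 70.3% (developing E4), and in the 1341 of developing RPE only they were 72.5%, 67.0%, 54.9% and 68.2%. The 706 regions higher at E5 leaned the other way in 3 of the groups, with replicate 1 the higher in 18.6% (E5 6hPR+FGF2), 28.8% (E4 6hPR+FGF2) and 25.6% (developing E4), and in 61.0% in developing E5 RPE.

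The tilt at E4 was shared by the 2 conditions. In 1033 of the E4-high regions (80.2%) replicate 1 was the higher in both E4 groups, against 27.4% of E4-level regions. The 2 replicate differences correlated across the E4-high regions with a Pearson r of 0.452, against 0.393 across E4-level regions. Both correlations are a description over regions of 4 shared libraries, and such a correlation was not particular to the E4-high regions. The labels give no batch, collection day or exact age within a stage for the replicates, and the part that any of these had in the membership was not tested. The membership rested on these libraries. Without the E4 6hPR+FGF2 replicate 1 library the rule gave 762 regions, of which 691 were among the 1288, and without both E4 replicate 1 libraries, an alternative added after the data were seen, it gave 676, of which 462 were (35.9% of the 1288). Without both E4 replicate 2 libraries it gave 2540. Against E4 replicate 2 alone, the median stage difference of the 1288 regions was -1.06 log2 after 6hPR+FGF2 and -1.12 in developing RPE. Against E4 replicate 1 alone it was -1.75 and -1.56.

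**Figure D3:**
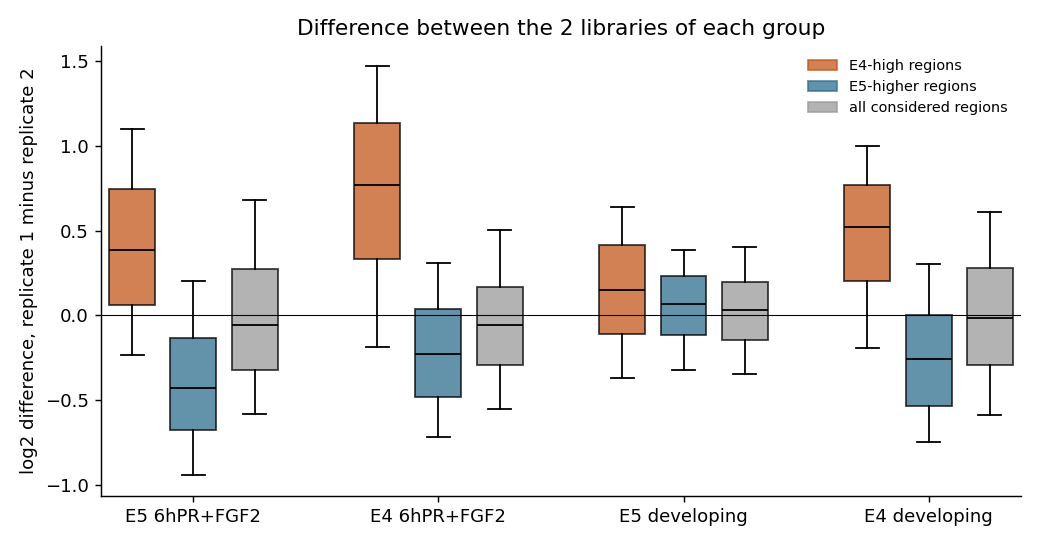
Difference between the 2 libraries of each group, as log2(replicate 1 + 1) minus log2(replicate 2 + 1), over the 1288 E4-high regions (orange), the 706 regions higher at E5 in both conditions (blue) and the 83389 regions considered (grey). Boxes span the middle 50% of the regions with the median as a line, whiskers the 10th to 90th percentile. The E4-high regions have medians of 0.39, 0.77, 0.15 and 0.52 from left to right.

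The next comparison asked whether retinectomy with FGF2 altered these regions at either stage. It used contrasts that the rule did not, although the libraries are the same ones. At E5, 54 of the 1288 regions (4.19%) rose after 6hPR+FGF2 and 158 (12.3%) fell, at a limma adjusted p of at most 0.05, against 18.2% and 19.3% of all regions. At E4, 36 (2.80%) rose and 48 (3.73%) fell, against 10.4% and 9.53% of all regions. All 4 shares were below those of all regions. That did not hold under every setting: without E4 6hPR+FGF2 replicate 1, 164 (12.7%) fell at E4, against 5.84% of all regions. With a replicate block, 21.5% fell at E5, against 21.1% of all regions, and 11.3% at E4, against 11.5%, although replicate numbers do not pair the libraries by their labels. By DESeq2 the share stayed below that of all regions, with 88 called lower at E4 (6.83%), against 11.1% of all regions tested. In the E4-high regions the libraries of a group were also further apart, with a median SD of log2 values of 0.55 in E4 6hPR+FGF2 and 0.40 in developing E4 RPE, against 0.15 and 0.18 in E4-level regions, and a wider spread makes a call harder to reach. Its part in the low counts was not tested.

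The minimum E4 level bears on these counts, since a region may have reached it in 1 condition only. Of the 83 that reached 100 normalized counts only after 6hPR+FGF2, 12 (14.5%) rose and 0 fell at E4, and 13 (15.7%) rose and 0 fell at E5. Of the 176 that reached it only in developing RPE, 0 rose and 19 (10.8%) fell at E4, and 0 rose and 46 (26.1%) fell at E5. Among all regions 10.4% rose and 9.53% fell at E4, and 18.2% rose and 19.3% fell at E5. For the 83 and the 176, the split itself sets the direction at E4, and a fall in both conditions tends to carry it to E5. Nothing is therefore read from a comparison of their shares with those of all regions. Of the 1029 that reached the minimum in both conditions, 24 (2.33%) rose and 29 (2.82%) fell at E4. At E5, 41 (3.98%) rose and 112 (10.9%) fell. Asking for the minimum in both E4 groups tends to leave out regions with a large treatment difference at E4. Nothing is therefore read from a comparison of the shares of the 1029 with those of all regions either.

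The counts depended on single libraries. Every setting listed here leaves at least 1 group with a single library, and the share of all regions called was smaller in each of them. The calls of the E4-high regions dropped as well, with 1 exception. Falls at E4 without E4 6hPR+FGF2 replicate 1 became more frequent in the E4-high regions and less frequent in all regions. Apart from that setting, a drop as such was shared with all regions, but its size was not alike. In some settings the calls of the E4-high regions shrank by a larger factor, as for falls at E5 without E5 6hPR+FGF2 replicate 2. A lone library gives its group no spread of its own, so the counts below are a description only. Whether they reflect a general loss of calls or a trait of the E4-high regions was not tested. At E5 the number that rose was 29, 26 and 25 without E5 6hPR+FGF2 replicate 1, developing E5 replicate 1 and developing E5 replicate 2. The number that fell at E5 was 61, 35 and 63 without E5 6hPR+FGF2 replicate 2, developing E5 replicate 1 and developing E5 replicate 2. At E4 the number that rose was 20, 11 and 18 without E4 6hPR+FGF2 replicate 1, E4 6hPR+FGF2 replicate 2 and developing E4 replicate 2. The number that fell at E4 was 164 without E4 6hPR+FGF2 replicate 1, and 14, 21 and 20 without E4 6hPR+FGF2 replicate 2, developing E4 replicate 1 and developing E4 replicate 2. Without both E4 replicate 1 libraries 8 rose and 30 fell at E4.

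In size, the treatment differences leaned downwards at both stages. The median log2 difference of 6hPR+FGF2 over developing RPE was -0.31 at E5 and -0.22 at E4, against 0.02 and -0.01 over E4-level regions. Of the related lists, the 706 regions higher at E5 leaned downwards too, with medians of -0.54 at E5 and -0.49 at E4. Regions that fell in 6hPR+FGF2 RPE only had -0.86 and -0.16. Those that fell in developing RPE only leaned upwards at E5, with 0.34, and downwards at E4, with -0.31. The criteria of each list bear on these medians, since stage and treatment differences are made from the same group means. A 2-fold change or more was seen in 17.6% of E4-high regions at E5 and in 9.01% at E4, against 23.0% and 15.2% of E4-level regions. Counted by libraries that do not overlap, 201 regions (15.6%) were higher and 574 (44.6%) lower after 6hPR+FGF2 at E5, against 33.9% and 37% of all regions. At E4, 144 (11.2%) were higher and 254 (19.7%) lower, against 30.5% and 32%. Regions without overlap that were lower at E5 were thus the only class whose share was above the background.

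**Figure D4:**
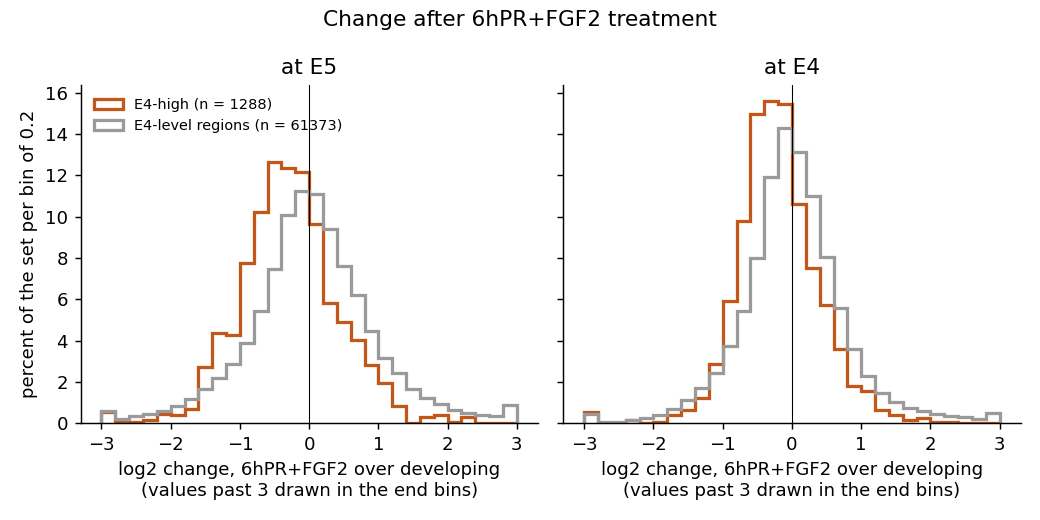
Distribution of the log2 difference of 6hPR+FGF2 over developing RPE at E5 (left) and E4 (right), for the 1288 E4-high regions (orange) and the 61373 E4-level regions (grey), as percent of each set per bin of 0.2 log2, with values past 3 in the end bins. The E4-high regions have medians of -0.31 and -0.22 and the E4-level regions 0.02 and -0.01.

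The calls at the 2 stages pointed the same way where both were made. The rule favours this: a region that falls alike in both conditions has like treatment differences at both stages. The classes below are therefore a description, and the share of all regions in each class with a call is not given here. Of the 1288 regions, 28 rose at both stages and 41 fell at both, and no region rose at one and fell at the other. At E5 alone 26 rose and 117 fell, and at E4 alone 8 rose and 7 fell. A call at 1 stage does not show a difference between stages, and no test of that difference is given, because the rule used the values that define it. At neither stage were 1061 regions called (82.4%), against 59.1% of all regions.

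The strongest rise belonged to chr23:4733630-4733920, which had 97.4 and 111 normalized counts after 6hPR+FGF2 against 22.6 and 16.7 in developing RPE at E5. At E4 it had 319.5 and 282 after 6hPR+FGF2 against 69.3 and 45.7 in developing RPE. It reached the minimum E4 level only after 6hPR+FGF2, the group in which it was high, so its rise at E4 is tied to how it was chosen. Its rise at E5 is in part tied to this too, because the rule asked for a fall in both conditions. The difference was 2.36 log2 (SE 0.32, limma adjusted p 0.000512) at E5 and 2.40 log2 (SE 0.32, limma adjusted p 0.00114) at E4. The stage difference, which the rule chose, left 34.6% of the E4 mean at E5 after treatment and 34.2% in developing RPE. The rise at E4 was lost without both E4 replicate 2 libraries (adjusted p between 8.95e-10 and 0.0548 over 20 alternatives).

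A 300-bp region at chr2:138117490-138117790 had 123 and 66.9 normalized counts after 6hPR+FGF2 against 21.2 and 17.5 in developing RPE at E5, and 177 and 207 against 43.8 and 38.3 at E4. This region and the next also reached the minimum E4 level only after 6hPR+FGF2. Their rises at E4, and in part those at E5, are thus tied to how they were chosen. The chromosome 2 region rose by 2.18 log2 (SE 0.36, limma adjusted p 0.00143) at E5 and 2.19 log2 (SE 0.36, limma adjusted p 0.0031) at E4. Without both E4 replicate 2 libraries the difference at E4 was 1.99 log2, and the call there was not kept. The smallest of the risers, 210 bp at chr1:37742970-37743180, rose by 1.98 log2 (SE 0.39) at E5 and 1.94 log2 (SE 0.39) at E4, with limma adjusted p-values of 0.00366 and 0.00811. The call at E4 was lost without E4 6hPR+FGF2 replicate 2 or without both E4 libraries of either replicate number, and the adjusted p ran between 0.000845 and 0.213 over its 20 alternatives.

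A further pair of regions was named for the rise at E5. The second of them reached the minimum E4 level only after 6hPR+FGF2. Its rise at E4, and in part that at E5, is thus tied to how it was chosen. At chr3:13238300-13238870 there were 274 and 279.6 normalized counts after 6hPR+FGF2 against 42.4 and 70.8 in developing RPE at E5, a rise of 2.31 log2 (SE 0.27, limma adjusted p 0.000251). At E4 there were 469 and 645 after 6hPR+FGF2 against 211 and 223 in developing RPE, a rise of 1.34 log2 (SE 0.27, limma adjusted p 0.00779), which was lost without E4 6hPR+FGF2 replicate 2 or without both E4 libraries of either number (adjusted p between 2.04e-05 and 0.171 over 20 alternatives). In this region E5 kept 49.7% of the E4 mean after 6hPR+FGF2 and 26.1% in developing RPE. At chr6:32188270-32188550 the counts were 77.2 and 63.8 after 6hPR+FGF2 against 15.6 and 13.3 in developing RPE at E5, a rise of 2.21 log2 (SE 0.36, limma adjusted p 0.00123). At E4, where the minimum was reached only after 6hPR+FGF2, they were 117 and 167 against 62.2 and 44.0, a rise of 1.40 log2 (SE 0.36, limma adjusted p 0.0213) that was lost under 4 of 20 alternatives (adjusted p between 0.00712 and 0.39), among them those without E4 6hPR+FGF2 replicate 2 or developing E4 replicate 2.

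The falls with the largest fitted size were regions with almost no reads in any treated library. At chr18:11002120-11002470 no read was found in either E5 6hPR+FGF2 library, against 79.9 and 65.8 normalized counts in developing E5 RPE. At E4 it had 4.14 and 3.05 normalized counts after 6hPR+FGF2, which were 6 and 4 reads, against 242 and 145 in developing RPE. The neighbouring chr18:10990680-10991000 had no read in the E5 6hPR+FGF2 libraries and 6 and 5 reads in the E4 6hPR+FGF2 libraries, against 85.6 and 59.2 normalized counts in developing E5 RPE and 236 and 162 in developing E4 RPE. Both reached the minimum E4 level only in developing RPE, the group in which they were high. Their falls at E4, and in part those at E5, are thus tied to how they were chosen. With 3 reads per library as the floor, both were at least 14.4-fold lower after 6hPR+FGF2 at E5. At E4 the fitted differences were -5.37 log2 (SE 0.54) and -5.31 log2 (SE 0.53), with limma adjusted p-values of 0.000341 and 0.000325. No stage fold is given for them in treated RPE, because their E4 values there were below the 5.03 normalized counts that 3 reads per library are worth at E5.

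These 2 sites were part of a stretch with much less signal after treatment. Within 50 kb on either side there were 32 further open regions, between chr18:10953900 and chr18:11051200, and 28 of them were called lower after 6hPR+FGF2 at both stages and none higher. All but 1 of the 32 lay below developing RPE without overlap of libraries at both stages. Their median log2 differences were -3.85 at E5 and -4.30 at E4. Their median stage difference was -0.48 log2 after 6hPR+FGF2 and -0.77 log2 in developing RPE, and 1 of the 32 was itself an E4-high region. The difference was present at both stages, each with its own pools of embryos, but the labels give no batch for the pools. A difference between the treated and developing pools cannot be told apart from the treatment here.

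Another region of this kind was chr1:115596630-115597130, with 1.84 and 0 normalized counts at E5 and 5.52 and 2.29 at E4 after 6hPR+FGF2. Developing RPE had 72.8 and 43.3 at E5 and 141 and 169 at E4. It too reached the minimum E4 level only in developing RPE. Its fall at E4, and in part that at E5, is thus tied to how it was chosen. At E5 it had 1 read in the 6hPR+FGF2 libraries together against 155 in developing RPE, a ratio of 71.3-fold lower with an exact 95% binomial interval of 12.6 to 2834 that covers counting error only. It was called lower at E5 (limma adjusted p 0.000444), with a fitted difference that ran between -6.12 and -2.61 log2 over 18 alternatives, and the difference at E4 was -5.07 log2 (SE 0.67, limma adjusted p 0.00109), which was lost without both E4 replicate 2 libraries (adjusted p between 8.3e-14 and 0.0746 over 20 alternatives). These 3 regions were the only ones of the 1288 with fewer than 20 reads in the 2 E4 6hPR+FGF2 libraries together. In the E5 6hPR+FGF2 libraries 40 regions had fewer than 20 reads and in developing RPE none.

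A fall on a high level was seen at chr8:21116360-21117450. It had 14.7 and 39.5 normalized counts after 6hPR+FGF2 against 990.1 and 825 in developing RPE at E5, and 141 and 269 after 6hPR+FGF2 against 3209 and 998 in developing RPE at E4. The difference was -5.17 log2 (SE 0.55, limma adjusted p 0.000171) at E5 and -3.19 log2 (SE 0.55, limma adjusted p 0.00385) at E4. The 2 developing E4 libraries of this region were far apart, and without both E4 replicate 1 libraries the difference at E4 was -1.89 log2 with an adjusted p of 0.0892, the largest over its 20 alternatives, which began at 0.000151.

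Annotation was at hand for the part of chromosome 1 that the study's tables list, where 44 of 1916 open regions were E4-high. None of the 44 was at a promoter and none at a transcription end, against 7.10% and 2.71% of the 1916. Of the 44, 24 (54.5%) were intergenic, 19 (43.2%) intronic and 1 exonic, against 36.6%, 50.7% and 2.92%. The difference was not tested. A gene symbol for the nearest gene start was given for 18 of the 44 (40.9%), against 61.2% of the 1916.

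Among those symbols were SEMA3D, SEMA3A, SEMA3E and PLXNA4. Semaphorins of class 3 are secreted guidance cues, and plexins such as PLXNA4 are receptors for some of them. The E4-high regions assigned to these semaphorin genes lay in a single stretch, from chr1:8853170 to chr1:9689780. They are thus neighbours, and no theme of the E4-high regions is read from them. Near SEMA3D an intronic region, chr1:8912790-8913330, had 36.7 and 30.4 normalized counts at E5 against 168 and 99.97 at E4 after 6hPR+FGF2, and 38.9 and 46.7 against 157 and 124 in developing RPE. Its E5 mean was 25.02% of the E4 mean after treatment and 30.5% in developing RPE. A second intronic region of SEMA3D, chr1:8853170-8853650, left 45.5% and 42.5%. The intergenic region chr1:9168700-9169460, assigned to SEMA3A, had 55.1 and 44.1 normalized counts at E5 against 208 and 104 at E4 after 6hPR+FGF2, and 84.2 and 51.7 against 235 and 182 in developing RPE.

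SEMA3E had an intergenic and an intronic region. The intergenic one, chr1:9605930-9606920, had 112 and 123 normalized counts at E5 against 585 and 195 at E4 after 6hPR+FGF2, and 286 and 206 against 779 and 565 in developing RPE. The intronic one, chr1:9688850-9689780, had close replicates at E4 after 6hPR+FGF2, with 114 and 103 normalized counts at E5 against 420.3 and 411 at E4. In developing RPE it had 129 and 162 at E5 against 287 and 389.7 at E4. In PLXNA4 the intronic regions chr1:3050490-3050900 and chr1:3048020-3048380 left 33.6% and 40.9% of the E4 mean after treatment and 29.4% and 45.9% in developing RPE.

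The E4-high regions were a minority of the open regions around these genes. Among open regions assigned to or lying in each gene, they were 2 of 44 for PLXNA4, 2 of 34 for SEMA3A, 2 of 24 for SEMA3D and 2 of 20 for SEMA3E. The other regions had median E5 over E4 differences of 0.30 log2 (PLXNA4), -0.22 (SEMA3A), -0.10 (SEMA3D) and 0.02 (SEMA3E) after 6hPR+FGF2, and of 0.03, -0.31, -0.13 and 0.01 in developing RPE. In PLXNA4, 4 others were called higher at E5 after treatment by limma, against 1 each for SEMA3A and SEMA3D and 0 for SEMA3E. For MAGI2, a scaffold protein of cell junctions, 5 of 43 regions were E4-high, and 3 others were called higher at E5 in developing RPE.

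Transcription factor genes were also among the symbols. The intergenic region chr1:4964390-4964680, assigned to GATA3, a zinc finger factor, had 73.5 and 38.0 normalized counts at E5 against 237 and 99.2 at E4 after 6hPR+FGF2, and 47.4 and 37.5 against 154 and 116 in developing RPE. DMTF1 encodes a Myb-like factor. Its intergenic region chr1:8064740-8065160 had 68.0 and 77.5 normalized counts after 6hPR+FGF2 against 33.9 and 34.2 in developing RPE at E5. It rose there by 1.07 log2 (SE 0.32, limma adjusted p 0.0254), a call that was lost without any 1 of the 4 E5 libraries (adjusted p between 0.0146 and 0.105 over 18 alternatives). At E4 it had 163 and 201 after 6hPR+FGF2 against 91.9 and 161 in developing RPE, with an adjusted p of 0.239.

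A region in an intron of PKNOX1, a TALE homeobox factor, lay further along the chromosome at chr1:110936780-110937640 and was annotated from the study's summit table. It had 44.1 and 45.6 normalized counts after 6hPR+FGF2 against 159.8 and 89.2 in developing RPE at E5, and 172 and 74.8 after 6hPR+FGF2 against 335 and 238 in developing RPE at E4. It fell by 1.39 log2 (SE 0.41, limma adjusted p 0.0232) at E5 and by 1.31 log2 (SE 0.41, limma adjusted p 0.0483) at E4. The call at E5 was lost under 3 of 18 alternatives (adjusted p between 0.00471 and 0.185) and that at E4 under 12 of 20 (between 0.0149 and 0.315). At E5 these were the settings without either E5 6hPR+FGF2 library or without developing E5 replicate 1. At E4 they included edgeR, equal totals, and the settings without E4 6hPR+FGF2 replicate 2 or either developing E4 library.

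The remaining named genes were of other kinds. The only exonic region, chr1:23078070-23078690, lay in an exon of PTPRZ1, a receptor-type tyrosine phosphatase, while its nearest gene start was that of AASS, an enzyme of lysine breakdown. It had 68.0 and 27.4 normalized counts at E5 against 159 and 89.3 at E4 after 6hPR+FGF2, and 70.0 and 45.0 against 215 and 146 in developing RPE. In an intron of FRMD4A, a FERM domain protein, chr1:7421960-7423190 left 36.8% of its E4 mean at E5 after treatment and 40.6% in developing RPE. Assignment by distance does not show which gene a region acts on, and the expression of these genes was not analysed here.

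Some E4-high regions lay in groups. When they were chained with gaps of at most 50 kb 889 stood alone, 117 runs held 2 regions, 30 held 3, 8 held 4, 6 held 5, 1 held 6 and 1 held 7. In all, 399 regions (31.0%) had another within 50 kb, against 15.0% of the 706 regions higher at E5. A larger list gives closer neighbours by its size alone. Regions that met the criteria in 6hPR+FGF2 RPE only, 1583 in number, had a neighbour of their list in 30.6%, and the 1341 of developing RPE only in 27.1%.

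The longest run held 7 E4-high regions among 27 open regions at chr2:31895580-32042100, over 146520 bp. Its members had a median stage difference of -1.43 log2 after 6hPR+FGF2 and -1.21 in developing RPE. The other 20 open regions had medians of -0.74 and -0.44, and 14 of them were below 0 in both conditions. The tallest member, chr2:32033060-32034520, had 542 and 463 normalized counts at E5 against 1643 and 1072 at E4 after 6hPR+FGF2, and 1024 and 842 against 2619 and 1478 in developing RPE.

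The others in this run were lower. At chr2:31987810-31988550 there were 186 and 198 normalized counts at E5 against 636 and 297 at E4 after 6hPR+FGF2, and 299 and 206 against 651 and 523 in developing RPE. At chr2:31967780-31968460 the E5 mean was 34.0% of the E4 mean after treatment and 46.6% in developing RPE. The members at chr2:31895580-31896090, chr2:31920540-31921160 and chr2:32041560-32042100 left 31.3%, 41.8% and 31.0% after treatment and 42.8%, 40.6% and 44.0% in developing RPE. The member at chr2:31989510-31990450, given above for the threshold, left 49.6% and 30.7%. Of the 7, chr2:32033060-32034520 and chr2:31895580-31896090 were called lower after 6hPR+FGF2 at E5. The falls were 0.89 log2 (SE 0.27, limma adjusted p 0.0269) and 1.14 log2 (SE 0.39, limma adjusted p 0.0428). The second region reached the minimum E4 level only in developing RPE, so its fall is in part tied to how it was chosen. Both calls were lost without any 1 of the 4 E5 libraries, and the second also under 8 further settings, DESeq2 and edgeR included, with adjusted p-values up to 0.145 and 0.203 over 18 alternatives and from 0.00282 and 0.0159.

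In the run at chr8:22385970-22429400, 6 of 10 open regions within 43430 bp were E4-high. The median stage difference of the 6 was -1.38 log2 after 6hPR+FGF2 and -1.51 in developing RPE, and that of the other 4 was -0.14 and -0.15. Its tallest member, chr8:22416130-22417250, had 202 and 119 normalized counts at E5 against 658 and 309 at E4 after 6hPR+FGF2, and 365 and 228 against 908 and 677 in developing RPE. The member at chr8:22428570-22429400 had 127 and 109 at E5 against 366 and 270.2 at E4 after 6hPR+FGF2, and 186 and 159.99 against 635 and 428 in developing RPE.

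The 4 smaller members differed in how the conditions compared. At chr8:22418140-22418860 the E5 mean was 48.0% of the E4 mean after 6hPR+FGF2 and 24.5% in developing RPE, whereas at chr8:22385970-22386560 it was 25.1% and 41.9%. The shares were 42.4% and 47.6% at chr8:22389800-22390370, and 38.9% and 31.4% at chr8:22404660-22405050. At E5, chr8:22385970-22386560 had 60.6 and 22.8 normalized counts after 6hPR+FGF2 against 164 and 129.99 in developing RPE, a fall of 1.94 log2 (SE 0.51, limma adjusted p 0.0135) that was lost without E5 6hPR+FGF2 replicate 2 or developing E5 replicate 1 (adjusted p between 0.000618 and 0.102 over 18 alternatives).

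Of the 3 runs, the third had the largest share of E4-high regions among its open regions. At chr1:5504500-5548090, 5 of 6 open regions were E4-high, and all were annotated as intergenic. The median stage difference of the 5 was -2.06 log2 after 6hPR+FGF2 and -1.42 in developing RPE, and the sixth region had 0.00 and -0.39. At chr1:5506580-5507170 there were 95.5 and 94.2 normalized counts at E5 against 540.3 and 255 at E4 after 6hPR+FGF2, and 132 and 152 against 482 and 279 in developing RPE. At chr1:5526280-5526630 the values were 25.7 and 13.7 at E5 against 175 and 45.8 at E4 after 6hPR+FGF2, and 55.9 and 40.0 against 167 and 93.8 in developing RPE.

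Treatment calls within this run were made at a different stage in each of 2 members. At chr1:5504500-5504950 there were 242 and 204 normalized counts after 6hPR+FGF2 against 94.8 and 119 in developing RPE at E4, a rise of 1.06 log2 (SE 0.29, limma adjusted p 0.0277), and 45.9 and 53.2 against 35.4 and 32.5 at E5 (adjusted p 0.168). At chr1:5546300-5546930 there were 66.1 and 47.1 after 6hPR+FGF2 against 170.4 and 103 in developing RPE at E5, a fall of 1.23 log2 (SE 0.37, limma adjusted p 0.0253), and 208 and 112 against 395 and 263 at E4 (adjusted p 0.0683). The rise was lost without any 1 of the 4 E4 libraries (adjusted p between 0.0158 and 0.321 over 20 alternatives), and the fall without E5 6hPR+FGF2 replicate 2 or developing E5 replicate 1 (between 0.00228 and 0.193 over 18). The last member, chr1:5547600-5548090, left 25.9% of its E4 mean at E5 after 6hPR+FGF2 and 26.0% in developing RPE.

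Open regions close to an E4-high region also tended to be lower at E5. Those 1 to 10 kb away, 2187 in number, had a median stage difference of -0.17 log2 after 6hPR+FGF2 and -0.14 in developing RPE. At 10 to 50 kb the medians were -0.04 and -0.03, at 50 to 100 kb 0.00 and 0.01, at 100 to 500 kb 0.05 and 0.05, and beyond 500 kb 0.09 and 0.06. The share below 0 in both conditions was 45.7% at 1 to 10 kb and 24.8% beyond 500 kb, against 29.8% of all regions considered. The share called lower at E5 by limma was 4.25% at 1 to 10 kb and 0.964% beyond 500 kb after 6hPR+FGF2, and 2.06% and 0.64% in developing RPE. Regions past the threshold had become E4-high regions themselves and are not in these values.

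Around the 706 regions higher at E5 the medians ran the other way, at 0.16 log2 after 6hPR+FGF2 and 0.12 in developing RPE for regions 1 to 10 kb away and 0.00 and 0.01 beyond 500 kb. The interquartile range at 1 to 10 kb of an E4-high region was -0.60 to 0.21 after 6hPR+FGF2 and -0.52 to 0.21 in developing RPE, so that single neighbours lay on either side of 0. Both stage comparisons come from the libraries that chose the E4-high regions, and no test was made.

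**Figure D5:**
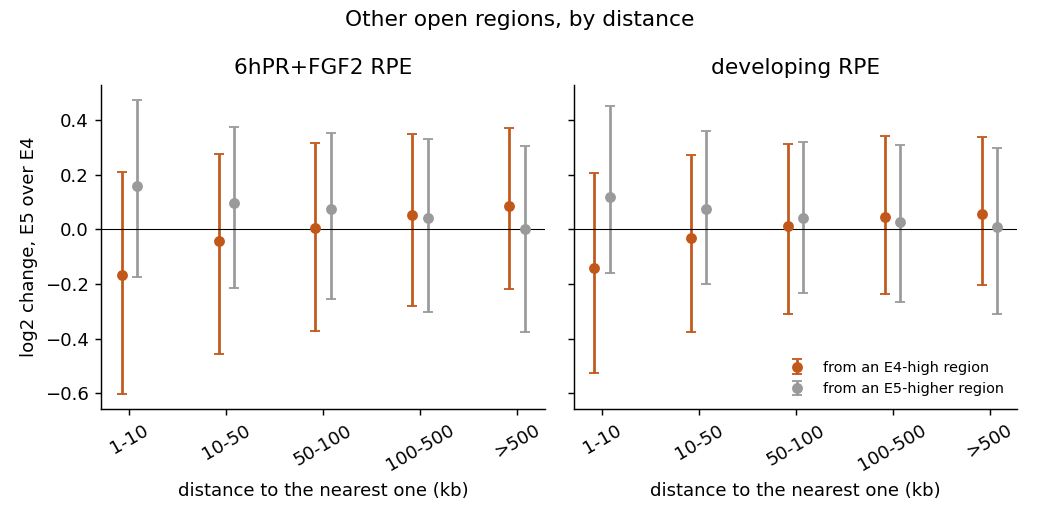
Log2 difference of E5 over E4 of open regions by their distance to the nearest E4-high region (orange) or the nearest of the 706 regions higher at E5 (grey), after 6hPR+FGF2 (left) and in developing RPE (right). Points are medians and bars run between the quartiles, over 2187 to 36439 regions a bin for the E4-high regions. The orange medians lie at -0.17 and -0.14 in the nearest bin and at 0.09 and 0.06 in the farthest.

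The E4-high regions were narrower than other regions of their level and more frequent on large chromosomes. Their median width was 540 bp (interquartile range 400 to 800), against 720 bp (470 to 1220) in E4-level regions and 500 bp in the regions higher at E5. It was 550 bp in regions that fell in 6hPR+FGF2 RPE only and 490 bp in those that fell in developing RPE only. Over all 89824 regions it was 540 bp too, so this width is not particular to the E4-high regions. They were 2.59% of E4-level regions on the macrochromosomes 1 to 5, 2.08% on chromosomes 6 to 10 and 1.27% on the microchromosomes 11 to 28. Regions higher at E5 need not reach the E4 level, so no share of E4-level regions is given for them. Of these regions 52.5% lay on macrochromosomes, 16.6% on chromosomes 6 to 10 and 30.9% on microchromosomes. Over all regions considered the shares were 53.7%, 17.7% and 28.6%. Of the E4-high regions 64.0% lay on macrochromosomes and 18.3% on microchromosomes. The shares were alike in regions that fell in 6hPR+FGF2 RPE only, at 64.2% and 17.0%, and were 56.6% and 24.2% in those that fell in developing RPE only and 51.9% and 30.3% in E4-level regions. In numbers, 824 E4-high regions were on macrochromosomes, 228 on chromosomes 6 to 10 and 236 on microchromosomes. Single chromosomes ranged between 3.06% of E4-level regions on chromosome 2 and 0.353% on chromosome 28, with none of 89 on chromosome 16. Base composition and gene density, which differ between these classes of chicken chromosome, were not measured, and their part was not tested.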

How the data were processed

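The authors trimmed reads with Cutadapt and Trim Galore, aligned them to GRCg6a with Bowtie2, reporting several alignments per read, removed duplicates with Picard, called open regions per library with HMMRATAC, merged them with bedtools and counted reads with featureCounts. The deposited signal is that count divided by DESeq2 size factors, so reads of repeated sequence may sit at the wrong copy. For the authors' steps, versions and a shift of reads for Tn5 are not stated by the sources. Start positions are printed as deposited. Every value was a whole multiple of 1 read (100% within 1e-06), which gave whole reads.

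Conditions were compared with limma (3.58.1, under R 4.3.3), after a log2 transform of each value plus 1, in a group means model of all 8 libraries with a trend, two-sided, adjusted by Benjamini-Hochberg over 89824 regions at 0.05. Fold changes of low regions are understated on this scale. The test was tried on simulated counts, but the outcome is not given here and nothing is drawn from it. Each group had 2 libraries of pooled embryos, and p-values measure only the spread between these libraries. edgeR 4.0.16 and DESeq2 1.42.0 on recovered reads, other pseudocounts, scalings and filters, a replicate block and each library left out were alternatives. The rule for E4-high regions and the lists were chosen with earlier results of these data known. Regions were named by rule: the 8 deepest falls, 3 highest, 3 largest rises and falls per stage after treatment, 3 on each side of the threshold, members of the 3 longest runs (ties going to the shortest) and 12 with a gene symbol on chromosome 1. Symbols and feature classes came from the study's tables. Sequences, motifs, base composition and lists of genes near regions, all planned, were not analysed here.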

Additional observations from a re-analysis of the deposited data

How the results depend on the processing

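The 1288 E4-high regions became 730 with a minimum E4 mean of 200 and 279 with differences of at most -1.5 log2, and 762 to 1774 with 1 library left out. Without both E4 replicate 1 libraries there were 676 and without both E4 replicate 2 libraries 2540. The other 7 planned settings gave 1069 to 1737. Of regions called after 6hPR+FGF2, leaving out 1 library gave 11 to 49 higher and 14 to 164 lower at E4, and 25 to 57 higher and 35 to 222 lower at E5. Without both E4 replicate 1 libraries 8 were higher and 30 lower at E4, and without both E4 replicate 2 libraries 1 and 4, with lone libraries assumed to vary like the other groups. At E4, 88 were lower by DESeq2 and 30 with equal totals.

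Replicate numbers do not pair the libraries by their labels. The differences between replicates correlated across regions with 0.33 between the E4 groups, 0.33 between the 6hPR+FGF2 groups and -0.21 between the E5 groups. With a replicate block 47 were higher and 145 lower at E4, and 72 and 277 at E5. The lower ones were 11.3% at E4 and 21.5% at E5, against 11.5% and 21.1% of all regions. With the developing E5 numbers crossed, added after the data were seen, 50 were higher and 99 lower at E4 and 74 and 245 at E5. Of 26 treatment calls of named regions, 11 were kept under every alternative run, 15 were lost under some and 0 changed direction. The cause of these changes was not tested. Depth limited the E5 6hPR+FGF2 libraries most, where an E4-high region had a median of 76 reads, against 521, 196.5 and 381.5 in the E4 6hPR+FGF2, developing E5 and developing E4 groups.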
